A study of Bubalus bubalis with 2 samples.

Results

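OPRM1, PPARGC1A, TBX15 and CSPG5 are 4 of the 20905 gene rows of a deposited expression table of saliva from Murrah buffalo, a river-type dairy breed of water buffalo. They were chosen by name because their values stood far higher in the estrus library than in the diestrus library, so that difference is given here as a description and is not a finding. The table compares 1 library of cell-free total RNA from saliva at estrus, the stage of sexual receptivity, with 1 library of the same material at diestrus, the luteal stage. No treatment and no genetic change was named for either stage, and the labels do not give the age of the animals or say whether a library is 1 animal or a pool. With 1 library per stage there is no spread between animals, no test of the stages is possible, and every difference below has no replicate check. In RNA released into a fluid, how many cells gave RNA and how much each cell gave cannot be told apart.

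The 4 genes belong to unrelated protein families. OPRM1 encodes the mu-opioid receptor, a G protein-coupled receptor of neurons that binds endorphins, enkephalins and morphine and acts through inhibitory G proteins. PPARGC1A encodes PGC-1 alpha, a transcriptional coactivator that binds nuclear receptors and nuclear respiratory factors and drives genes of mitochondrial biogenesis in muscle, brown fat and liver. TBX15 encodes a T-box transcription factor of limb, craniofacial and skeletal muscle development. CSPG5, also called neuroglycan C, encodes a transmembrane chondroitin sulfate proteoglycan of brain tissue with a domain like that of epidermal growth factor. These roles are known mainly from human and mouse.

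Values are FPKM, the number of fragments scaled to transcript length and library size, as deposited by the authors. Short loci showed FPKM steps of whole fragments, from which a single fragment per kb of effective length came to 0.232 FPKM for the estrus library and to 1.25 FPKM for the diestrus library. A level of 3 fragments per kb was therefore 0.696 FPKM in estrus, against 3.76 in diestrus. Values under that level rest on few fragments per kb, and the fragments per row are not known. Rows above 0 numbered 8424 in estrus and 9491 in diestrus. A listed 0 is not read as absence, because 26 of 78 rows named as cytosolic ribosomal proteins stood at 0 in both libraries, among them RPL24. The 78 rows were taken by name and include paralogs such as RPL10L, though most such proteins are needed in all cells. Of the 13 rows for markers of saliva and salivary glands, 11 were at 0 in both libraries, beside 49.4% of all rows. Among the 11 were the peroxidase LPO, lysozyme LYZ, lactoferrin LTF and the carbonic anhydrase CA6. The other 2 were the protease inhibitor SLPI, at 19.3 FPKM in estrus and 0 in diestrus, and AZGP1, at 0 in estrus and 2.37 FPKM in diestrus.

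OPRM1 stood at 129018 FPKM at estrus against 82.96 at diestrus, for a log2 ratio of 10.59, or 1537-fold. All ratios were taken as log2((estrus FPKM + 1)/(diestrus FPKM + 1)), which understates the difference of low genes. It was the highest row of the estrus library and ranked 822 in the diestrus library. PPARGC1A stood at 92833 FPKM in estrus, against 116 in diestrus, for a log2 ratio of 9.63, or 793-fold, and ranked 2 in estrus and 617 in diestrus. Both genes were thus well above 0 in diestrus as well, where the median of rows above 0 was 5.73 FPKM.

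TBX15 stood at 16097 FPKM in estrus, rank 6, and at 2.17 FPKM in diestrus, rank 6678. Its log2 ratio of 12.31 was the largest of the 3 genes that have one, but its value at diestrus came to 1.73 fragments per kb, below 3, so this ratio is poorly fixed. CSPG5 stood at 11586 FPKM in estrus, rank 9, and was listed at 0 in diestrus, so no ratio is given. With the pseudocount, all 4 genes were at least 2-fold higher in estrus, as were 31.3% of the 8269 rows with a mean of at least 1 FPKM over both libraries, which are called counted rows here. The genes were chosen for this difference, so nothing is read from that count. Of the counted rows, 33.1% were at least 2-fold lower in estrus, and the median log2 ratio over all counted rows was -0.016. Of the counted rows 1437 were at 0 in a library, and such rows enter the counts and medians through the pseudocount. As deposited, 2590 counted rows were higher and 2740 lower. Both scalings named below lower the estrus values as a whole, and over all counted rows they gave 1936 higher and 3370 lower with equal upper quartiles, and 1577 higher and 3799 lower with equal FPKM sums. Other settings moved all counted rows the other way. A pseudocount of 10 FPKM gave 1412 higher and 976 lower. A filter of at least 10 FPKM on the mean left 3928 rows, with 1519 higher and 942 lower.

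**Figure D1:**
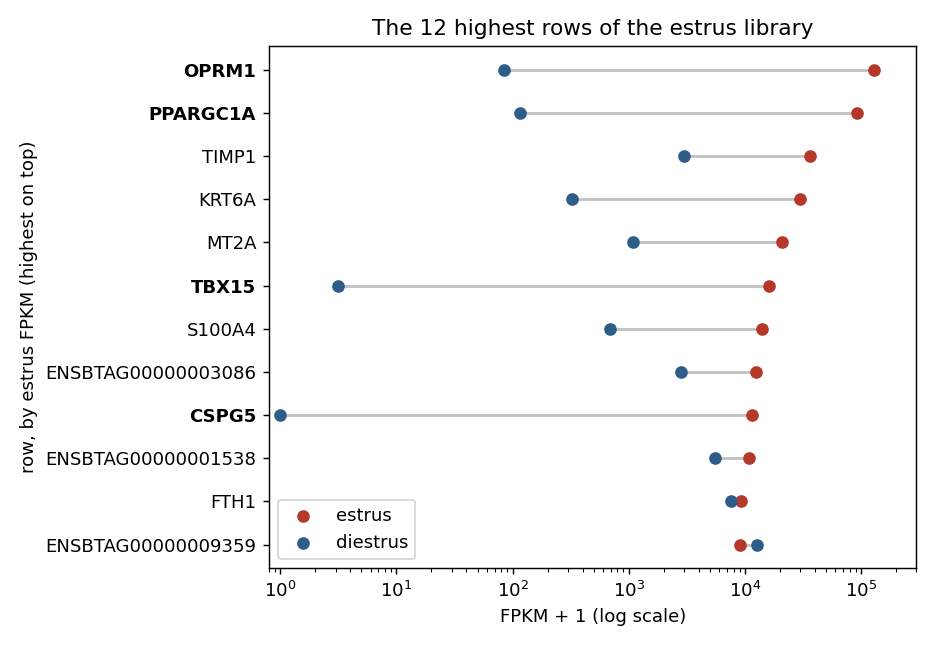
FPKM + 1 on a log axis for the 12 rows of highest value in the estrus library, with estrus in red and diestrus in blue and 1 library per point. The 4 genes, in bold, take ranks 1, 2, 6 and 9, and their diestrus points lie at 116 FPKM or lower, whereas the other 8 rows lie at 323 FPKM or higher in diestrus.

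The rows between and just below the 4 genes in the estrus ranking stood at 323 FPKM or more in both libraries. TIMP1, the secreted inhibitor of metalloproteinases, ranked 3 at 36054 FPKM at estrus against 2988 at diestrus. S100A4, a calcium-binding protein, ranked just below TBX15 at 14005 FPKM in estrus, against 689 in diestrus. The iron-storage gene FTH1 ranked below CSPG5 at 9195 FPKM at estrus against 7581 at diestrus. The 8 other rows among the highest 12 had log2 ratios from -0.48 to 6.53.

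In fragments, the estrus value of OPRM1 stood for 555825 fragments per kb of effective length and its diestrus value for 66.2. PPARGC1A stood for 399936 fragments per kb in estrus and 92.6 in diestrus, TBX15 for 69349 in estrus, and CSPG5 for 49912 in estrus. The sources used here do not give the lengths that the authors' tool took for these rows, so fragments per gene are not given. The diestrus values of OPRM1 and PPARGC1A thus rest on far more fragments per kb than that of TBX15.

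In the authors' deposited table the size of a ratio and its p-value did not follow each other over these genes. CSPG5 had a p-value of 0.00455 and a q-value of 0.413 in the authors' deposited table, with 1 smaller p-value among 1253 rows that have a p-value under 1. PPARGC1A had a p-value of 0.0432 and a q-value of 0.797 in the authors' deposited table, and OPRM1, with the larger ratio of this pair, a p-value of 0.0550 and the same q-value. TBX15 had a p-value of 0.192 in the authors' deposited table, larger than that of 144 other rows, although only CSPG5 and ENSBTAG00000045665, both listed at 0 in diestrus, had a larger ratio among those 1253 rows. The authors called a row at a p-value under 0.05, which took in CSPG5 and PPARGC1A, 2 of the 4 genes, against 3.91% of those 1253 rows in the authors' deposited table. The genes were chosen for a difference that also enters this call, so nothing is read from that count either. These p-values rest on 1 library per stage.

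The 4 genes together held 24.6% of the FPKM sum of the estrus library and 0.0386% of that of the diestrus library. OPRM1 held 12.7% of the estrus sum, PPARGC1A 9.14%, TBX15 1.58% and CSPG5 1.14%. In diestrus OPRM1 held 0.0159% and PPARGC1A 0.0222%. The FPKM sum was 1016096 in estrus and 521566 in diestrus, a ratio of 1.95, and without the 4 genes it was 766562 in estrus and 521364 in diestrus, a ratio of 1.47. The share of every other row in the estrus sum was 1.33 times as large when the 4 genes were left out.

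The number of rows that made up 50% of an FPKM sum followed the same values. It was 30 rows in estrus and 96 rows in diestrus. Without the 4 genes it was 77 rows in estrus and 96 rows in diestrus. The estrus library thus remained the more concentrated of the libraries without them, by a smaller margin.

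On their own chromosomes OPRM1 and PPARGC1A outweighed all other rows in estrus. OPRM1 held 88.8% of the estrus FPKM of chromosome 9, which has 502 rows, and 0.754% of its diestrus FPKM. PPARGC1A held 94.1% of the estrus FPKM of chromosome 6, which has 566 rows, and 2.32% of its diestrus FPKM. CSPG5 held 34.9% of the estrus FPKM of chromosome 22 and TBX15 held 21.2% of that of chromosome 3, where its diestrus share was 0.00677%.

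**Figure D2:**
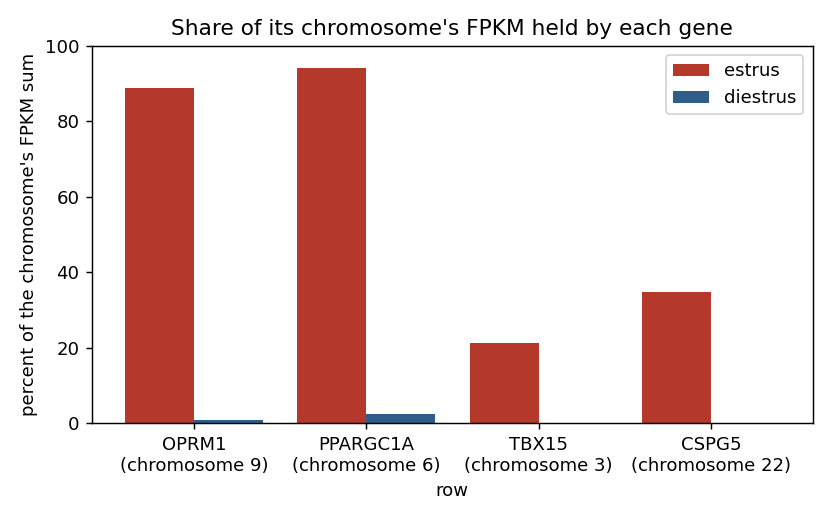
Percent of the FPKM sum of all rows on its chromosome held by each gene, with the estrus library in red and the diestrus library in blue. OPRM1 and PPARGC1A hold 88.8% and 94.1% in estrus, and no diestrus bar exceeds 2.32%.

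The chromosome sums show how far this reached. The FPKM sum of chromosome 6 was 19.8 times as high in estrus as in diestrus, and 1.20 times without PPARGC1A. For chromosome 9 the ratio was 13.2, and 1.49 without OPRM1. For chromosome 22 it was 3.04, and 1.98 without CSPG5, and for chromosome 3 it was 2.37, and 1.87 without TBX15. The ratios without these genes lay on either side of 1.47, the ratio of the whole library without the 4 genes.

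The loci of the 4 genes differed in length and none was shared. Coordinates are those of the table, whose build the sources used here do not give and whose chromosomes are numbered as in cattle. OPRM1 spans positions 92152082 to 92209694 of chromosome 9, or 57613 bp. PPARGC1A spans positions 44854113 to 44960668 of chromosome 6, or 106556 bp, and TBX15 spans positions 24236815 to 24359735 of chromosome 3, or 122921 bp. CSPG5 is the shortest, at positions 52649429 to 52661597 of chromosome 22, or 12169 bp, and its description in the table reads "Uncharacterized protein". The median span over all rows was 14577 bp, and 8.68% of rows were longer than TBX15, 10.4% longer than PPARGC1A, 20.3% longer than OPRM1 and 53.9% longer than CSPG5. No other row overlapped any of the 4 loci, whereas 1830 rows of the table share a locus with another row. The table gives 1 value per row for each library. Where within these spans the fragments lay is therefore not known, and the values are not read as expression of the named genes.

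Rows within 1 Mb of a gene were chosen by position alone and numbered 80, of which 10 lay around OPRM1, 5 around PPARGC1A, 12 around TBX15 and 53 around CSPG5. Of the 80 rows, 45 were at 0 in both libraries, or 56.2%, beside 49.4% of all rows. Of the 27 counted rows, 10 were at least 2-fold higher in estrus and 7 lower, with 10 between and a median log2 ratio of 0.30. The count of higher rows includes CCDC149, which was listed at 0 in diestrus. That is 37.0% higher and 25.9% lower, beside 31.3% and 33.1% of all counted rows. With equal upper quartiles the split was 8 higher and 10 lower, and with equal FPKM sums 6 higher and 12 lower. With a mean of at least 10 FPKM it was 7 higher and 3 lower of 15, where rows as a whole were more often higher. Most counted neighbours lay around CSPG5, and without them 2 were higher and 2 lower of 9.

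Around OPRM1 no neighbour exceeded 15.6 FPKM in either library, and 6 of the 10 were at 0 in both. The nearest row towards higher positions, 36.8 kb away, was IPCEF1, listed at 0 in both libraries. On the other side the nearest was the pseudogene row ENSBTAG00000012553, 618 kb away, at 0.111 FPKM in estrus, against 0.705 in diestrus. CNKSR3, a scaffold protein of kinase signalling, stood at 0.395 FPKM at estrus against 2.12 at diestrus.

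SCAF8, a factor of transcription termination, stood at 6.83 FPKM in estrus, against 12.8 in diestrus. TFB1M, a methyltransferase of the mitochondrial ribosome, stood at 15.6 FPKM at estrus against 12.5 at diestrus, and shares its locus with CLDN20 and TIAM2, both at 0. TFB1M was the highest neighbour in estrus, and OPRM1 stood 8273 times above it. In diestrus OPRM1 was also the highest row of its window, 6.49 times above SCAF8. It held 74.7% of the FPKM of the window in diestrus, and 99.98% in estrus, where the neighbours summed to 22.9 FPKM.

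Around PPARGC1A the nearest rows were the pseudogene row ENSBTAG00000033327, 185 kb away and at 0 in both libraries, and DHX15, an RNA helicase of splicing. DHX15, 669 kb away, stood at 22.9 FPKM in estrus, against 17.8 in diestrus. SOD3, the extracellular superoxide dismutase, stood at 10.2 FPKM at estrus against 1.01 at diestrus, where the diestrus value was under 3 fragments per kb. CCDC149, 979 kb away, was at 132 FPKM in estrus and listed at 0 in diestrus.

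CCDC149 was the highest neighbour in estrus, and PPARGC1A stood 701 times above it. In diestrus PPARGC1A stood 6.52 times above DHX15, the highest neighbour there, and held 86.0% of the FPKM of its window, beside 99.8% in estrus. PPARGC1A and OPRM1 were thus the highest rows of their windows in both libraries.

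TBX15 was the highest row of its window in estrus only. WARS2, the mitochondrial tryptophanyl-tRNA synthetase and the nearest row at 36.8 kb, stood at 8.62 FPKM in estrus, against 10.8 in diestrus. On the other side SPAG17, a protein of motile cilia 751 kb away, was at 0 in both libraries. PHGDH, the first enzyme of serine synthesis, was the highest neighbour at 174 FPKM at estrus against 121 at diestrus. NOTCH2, a receptor of cell fate signalling, stood at 2.60 FPKM in estrus, against 41.1 in diestrus. TBX15 stood 92.7 times above PHGDH in estrus, while in diestrus 3 rows of the window, PHGDH, NOTCH2 and WARS2, were higher than TBX15.

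CSPG5 lies in a window rich in genes, where 18 of 53 neighbours were counted, 8 of them higher, 5 lower and 5 between. The nearest rows on either side, SMARCC1, a subunit of the SWI/SNF chromatin complex, and ELP6, a subunit of Elongator, were 29.5 kb and 35.1 kb away and at 0 in both libraries. The highest neighbours in estrus were IP6K2, an inositol phosphate kinase, at 223 FPKM at estrus against 19.98 at diestrus, and SHISA5, at 158 FPKM in estrus, against 36.8 in diestrus. MAP4, a microtubule-associated protein, stood at 100.1 FPKM at estrus against 30.5 at diestrus and shares its locus with a pseudogene row.

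The highest neighbours of CSPG5 in diestrus were NCKIPSD, at 18.6 FPKM in estrus, against 89.4 in diestrus, SHISA5, and the phosphatase PTPN23, at 8.51 FPKM at estrus against 31.0 at diestrus. CSPG5 stood 51.9 times above IP6K2 in estrus, and 22 rows of its window were above it in diestrus. It held 94.3% of the FPKM of the window in estrus and 0% in diestrus.

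**Figure D3:**
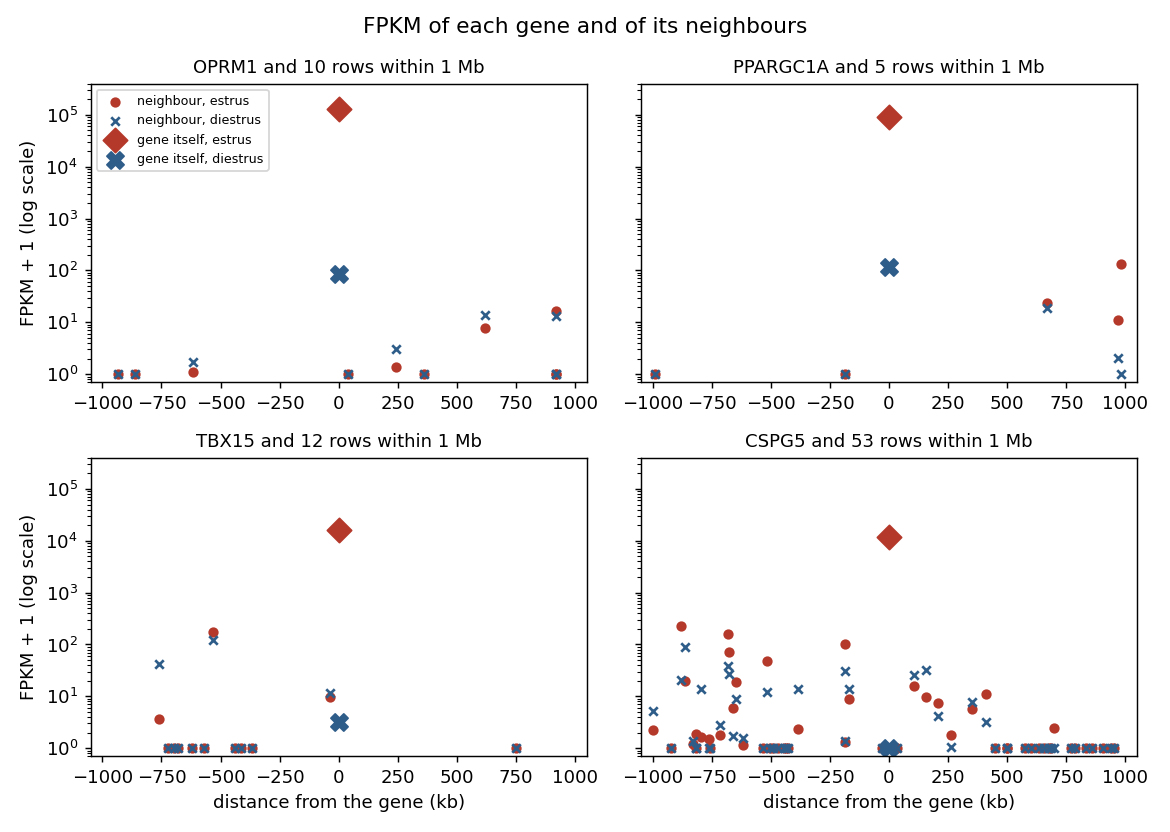
FPKM + 1 on a log axis against the distance in kb from each gene, with 1 panel per gene, estrus in red and diestrus in blue, the gene itself as a large symbol at 0 kb and other rows as small symbols. The estrus value of each gene lies above all its neighbours, from 51.9 times the highest for CSPG5 to 8273 times for OPRM1, while the neighbours of both stages lie between 0 and 223 FPKM.

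Standing alone in a window was not particular to the 4 genes. Over the 10 other rows of highest estrus value on chromosomes, the ratio of the row to its highest neighbour ranged from 3.42 to 936, with a median of 37.3. OPRM1 lay above that range, PPARGC1A and TBX15 lay within it and above its median, and 4 of the 10 rows exceeded CSPG5. The pseudogene rows ENSBTAG00000016391 and ENSBTAG00000009359, at 936 and 864 times their highest neighbours, were high in both stages, at 8971 and 9042 FPKM in estrus and 3468 and 12584 FPKM in diestrus.

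Most of the nearest genes were shared with RefSeq's annotation of the buffalo assembly NDDB_SH_1, which served for names and order only. Of the 16 nearest named protein-coding genes there, 2 on each side of each gene, 11 lay within 1 Mb of it in the table. RGS17 and MTRF1L near OPRM1, ADGRA3 and KCNIP4 near PPARGC1A and WDR3 near TBX15 were not among the rows within 1 Mb in the table. For CSPG5 all 4 of these neighbours were in the window.

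The rows most like the 4 genes were sought among the other 125 rows of at least 1000 FPKM in estrus, by their ratio over the 2 libraries. The median log2 ratio of those 125 rows was 1.08. At the head stood 3 pseudogene rows listed at 0 in diestrus, namely ENSBTAG00000045665 on chromosome 17, at 5209 FPKM in estrus, and ENSBTAG00000031766 and ENSBTAG00000031773 on chromosome 23, at 2607 and 2482 FPKM in estrus. They span only 255, 411 and 411 bp.

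MAFG, a small Maf transcription factor, followed at 2525 FPKM in estrus, against 3.25 in diestrus (log2 ratio 9.22). That diestrus value lay under 3.76 FPKM, the level of 3 fragments per kb, so this ratio is poorly fixed. KRT6A, a keratin of stressed epithelium, stood at 30046.5 FPKM at estrus against 323 at diestrus (log2 ratio 6.53). CTSZ, a lysosomal cathepsin, stood at 2541 FPKM in estrus, against 38.6 in diestrus (log2 ratio 6.005). The last of the 10 were NTMT1, a protein N-terminal methyltransferase, ODC1, the first enzyme of polyamine synthesis, the pseudogene row ENSBTAG00000027787 and S100A4, with log2 ratios of 5.57, 4.94, 4.72 and 4.34. All 10 rows had loci shorter than that of CSPG5, the longest at 9499 bp. Likeness over 2 libraries says nothing of shared function.

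**Figure D4:**
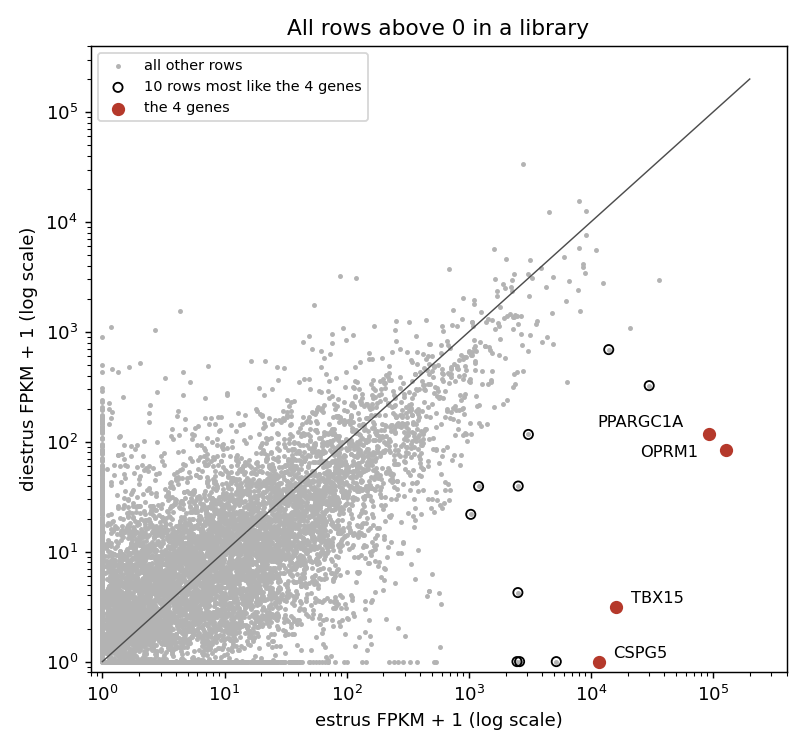
Estrus FPKM + 1 against diestrus FPKM + 1, both on log axes, for every row above 0 in a library, with the diagonal marking equal values. The 4 genes, in red, lie at the far right below the diagonal, OPRM1 and PPARGC1A at 82.96 and 116 FPKM in diestrus and TBX15 and CSPG5 at 2.17 and 0, with the 10 rows most like them circled.

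The other genes of the opioid system were low or listed at 0. Of 9 rows for opioid receptors, peptide precursors and the proteases that process them, 6 were at 0 in both libraries, beside 49.4% of all rows. Among the 6 were the delta and kappa receptors OPRD1 and OPRK1 and the precursor POMC. PENK, the precursor of enkephalins, stood at 8.37 FPKM in estrus, OPRL1, the nociceptin receptor, at 4.01 FPKM and PDYN, the precursor of dynorphins, at 1.30 FPKM, all 3 listed at 0 in diestrus. PENK and OPRL1 lay above 3.76 FPKM, the level of 3 fragments per kb in the diestrus library, and PDYN lay below it, so a difference in PDYN was not detectable at this depth. The 2 counted rows, PENK and OPRL1, had a median log2 ratio of 2.78, which depends on these listed zeros.

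Of the partners of the opioid receptor in the cell, 11 of 21 rows were counted, with a median log2 ratio of 1.52. In estrus 6 were higher, 3 lower and 2 between, beside 31.3% higher and 33.1% lower of all counted rows. With equal FPKM sums 3 were higher and 5 lower. With a mean of at least 10 FPKM 4 were higher and 0 lower of 5, where rows as a whole were more often higher. GNAI2, an inhibitory G protein subunit, stood at 289 FPKM at estrus against 340.1 at diestrus. RGS4, a regulator of G protein signalling, stood at 156 FPKM in estrus, against 8.86 in diestrus, and RGS19 at 56.4 FPKM at estrus against 7.77 at diestrus. RGS20, of the same family, stood at 36.2 FPKM in estrus, against 2.67 in diestrus, a diestrus value under 3 fragments per kb.

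Of the genes that work with PGC-1 alpha, 18 of 26 rows were counted, with a median log2 ratio of -0.47. In estrus 2 were higher, 8 lower and 8 between, beside 31.3% higher and 33.1% lower of all counted rows. Of the 18 rows 3 were at 0 in estrus and none in diestrus. With equal FPKM sums 2 were higher and 13 lower, and with a mean of at least 10 FPKM 2 were higher and 2 lower of 5. The coactivator PPARGC1B, its closest relative, and the nuclear respiratory factor NRF1 were at 0 in both libraries. The fatty acid-sensing receptor PPARA was one of those higher, at 154 FPKM at estrus against 0.709 at diestrus, and the acetyltransferase KAT2A the other, at 20.0 FPKM in estrus, against 3.97 in diestrus. FOXO1, a forkhead factor of fasting metabolism, stood at 4.76 FPKM at estrus against 131 at diestrus. PPARD was listed at 0 in estrus and stood at 30.1 FPKM in diestrus.

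Known targets of PGC-1 alpha lay on both sides, as counted rows did as a whole. Of 23 rows 8 were at 0 in both libraries, beside 49.4% of all rows. Among the 8 were TFAM, the packaging factor of mitochondrial DNA, and UCP1, the uncoupling protein of brown fat. Of 10 counted rows 2 were higher, 4 lower and 4 between, beside 31.3% higher and 33.1% lower of all counted rows. The median log2 ratio of the 10 was -0.76. With equal upper quartiles, a scaling that moved all counted rows the same way, 1 was higher and 6 lower. Of these 10 rows 2 were at 0 in estrus and 1 in diestrus. With a mean of at least 10 FPKM 1 was higher and 2 lower of 5. SOD2, the mitochondrial superoxide dismutase, stood at 218 FPKM in estrus, against 97.8 in diestrus. ATP5F1A, a subunit of ATP synthase, stood at 192 FPKM at estrus against 302 at diestrus, and VEGFA, the vascular growth factor, at 17.5 FPKM in estrus, against 189 in diestrus. UCP2, a mitochondrial carrier related to UCP1, was listed at 0 in estrus and stood at 38.9 FPKM in diestrus, the lowest ratio of the list.

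The T-box relatives of TBX15 were listed at 0 or lower in estrus. Of 15 rows 10 stood at 0 in both libraries, beside 49.4% of all rows. All 4 counted rows were lower in estrus, beside 33.1% of all counted rows, and 3 of the 4 were listed at 0 there. With a pseudocount of 10 FPKM 2 rows were lower, and with a mean of at least 10 FPKM 1 row, TBX3, was counted and lower. TBX3, a factor of limb and mammary development, stood at 10.5 FPKM at estrus against 101 at diestrus. TBX18, the closest relative of TBX15, stood at 16.9 FPKM in diestrus, TBX2 at 5.41 FPKM and TBX6 at 4.45 FPKM, all 3 at 0 in estrus. The median log2 ratio of the 4 counted rows was -2.92.

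Several other core proteins that carry chondroitin sulfate stood at high values in both stages. Of 7 counted rows 2 were higher in estrus and 2 lower, beside 31.3% and 33.1% of all counted rows. Another 3 lay between, and the median log2 ratio of the 7 was 0.59. With equal upper quartiles 1 was higher and 2 lower, beside the same shift of all counted rows. With a mean of at least 10 FPKM 2 were higher and 0 lower of 5, where rows as a whole were more often higher. Biglycan, BGN, stood at 2334 FPKM in estrus, against 1370 in diestrus. Decorin, DCN, stood at 1274 FPKM at estrus against 436 at diestrus, and CD44, the hyaluronan receptor, at 207 FPKM in estrus, against 137 in diestrus. VCAN, the large matrix proteoglycan versican, stood at 56.0 FPKM in estrus, against 43.1 in diestrus. The brain proteoglycan NCAN was at 0 in both libraries, and BCAN stood at 0.153 FPKM at estrus against 0.692 at diestrus.

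Of the enzymes that build and modify chondroitin sulfate, 15 rows were counted (median log2 ratio 0.29). In estrus 4 were higher, 6 lower and 5 between, beside 31.3% higher and 33.1% lower of all counted rows. Of the 6 lower rows 3 were at 0 in estrus. The lower rows B3GALT6, CHST13, XYLT1 and CSGALNACT2 stood at 2.99, 2.59, 2.17 and 2.12 FPKM in diestrus, under the 3.76 FPKM of 3 fragments per kb. The higher rows CHST11 and CHST3 stood at 0.937 and 0.994 FPKM in diestrus, also under that level. With equal upper quartiles 2 of the counted rows were higher and 7 lower, again beside that shift of all counted rows. With a mean of at least 10 FPKM 2 were higher and 1, CHPF2, lower of 6. The polymerising factor CHPF stood at 543 FPKM in estrus, against 183 in diestrus, while its paralog CHPF2 stood at 64.4 FPKM at estrus against 583 at diestrus. The dermatan sulfate epimerase DSE stood at 107 FPKM in estrus, against 26.5 in diestrus, and B3GAT3, an enzyme of the linker to the core protein, at 34.5 FPKM at estrus against 56.8 at diestrus. Of the neuregulins and ERBB receptors, the family of growth factor signalling in which CSPG5 has been placed, 2 of 5 rows were counted, ERBB2 at 2.81 FPKM at estrus against 4.54 at diestrus and NRG1 at 0 in estrus and 2.13 FPKM in diestrus (median log2 ratio -1.09).

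Over these 8 lists together, 69 rows were counted. Of the 69, 18 were higher in estrus and 28 lower, beside 31.3% and 33.1% of all counted rows. With equal FPKM sums the split was 11 higher and 39 lower, beside the shift of all counted rows given above. With a mean of at least 10 FPKM it was 11 higher and 6 lower of 27, beside 1519 and 942 of 3928 rows under that filter. The largest log2 ratio on any of the lists was 6.50, that of PPARA, whose diestrus value lay under 3 fragments per kb.

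**Figure D5:**
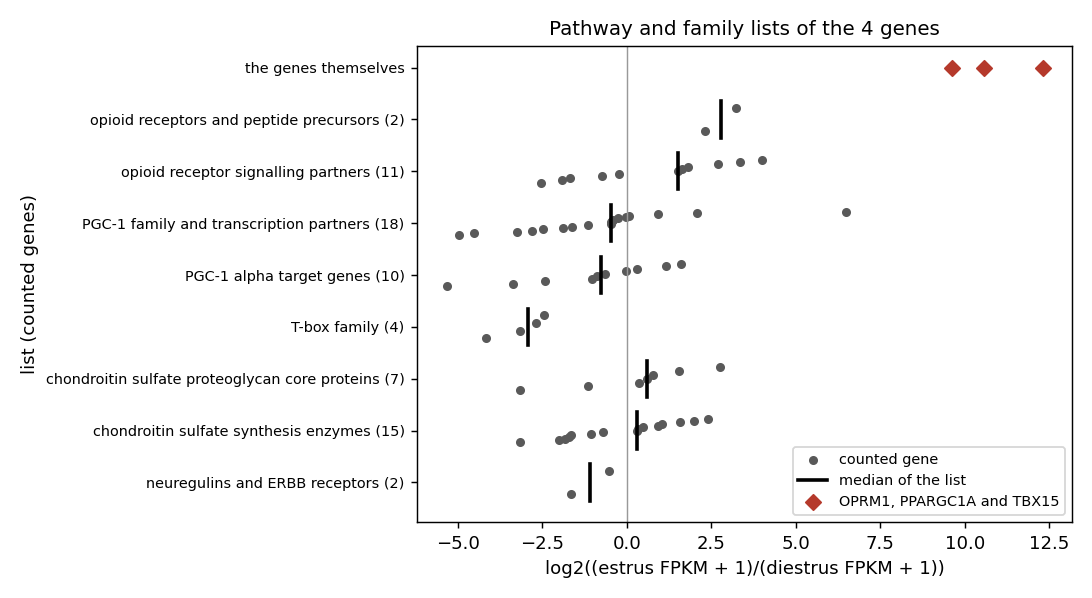
Log2 ratio of estrus over diestrus for each counted gene of the 8 pathway and family lists, with the number counted in brackets, the list median as a black bar, and OPRM1, PPARGC1A and TBX15 as red diamonds in the top line. The listed genes lie at 6.50 or lower, and the diamonds, at 9.63 to 12.31, are drawn for scale only, since those genes were chosen for their ratios.

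Since OPRM1 and CSPG5 are known from neurons, neuron markers were examined beside them. Of 18 rows 9 were at 0 in both libraries, a share near the 49.4% of all rows. SNAP25, SYP, STMN2, GAP43, GAD1, ELAVL3 and RBFOX3 were among these 9. The summed level of the list was 72.5 FPKM in estrus, against 409.9 in diestrus. TUBB3, a neuronal tubulin, made up most of it in estrus, at 68.4 FPKM at estrus against 92.7 at diestrus. The neurofilament gene NEFM made up most of it in diestrus, at 0 in estrus and 309 FPKM in diestrus. Of the 4 counted rows none was higher in estrus and 2 were lower, beside 31.3% and 33.1% of all counted rows, with a median log2 ratio of -0.80. The part of neuronal RNA in the values of OPRM1 and CSPG5 was not tested.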

How the data were processed

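Cell-free total RNA of saliva was sequenced from 1 estrus and 1 diestrus library, made with the Illumina TruSeq RNA kit v2, per the labels' protocols. Per the submitters' processing notes, the tools were TopHat, Bowtie, Cufflinks and Cuffdiff; the sources used here give neither versions nor a genome build. The FPKM values were made by the authors and used as deposited. The deposited log2 fold change was diestrus over estrus, checked on 7344 rows above 0 in both libraries, and was not used for ratios here. The authors' test statistic, a score, was not used, and each p-value or q-value was copied from the deposited table. Table starts were read as counting from 0, since 124 of 134 olfactory receptor spans were then multiples of 3, and are printed counting from 1. Of 15995 symbols, 14361 were in the buffalo RefSeq annotation.

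The step of 1 fragment was sought on loci of 400 to 3000 bp, with an effective length of span minus 185 bp, as the value that put the largest number of loci within 0.5% of 1 to 3 fragments (40 loci in estrus and 107 in diestrus, beside a median of 2 at other steps), and the search was tested on simulated data. Genes, lists and tests were chosen with earlier results of these data known. Named neighbours were the nearest on each side and the 3 highest in each library. From each list up to 4 counted genes of highest mean were named, and others, such as rows at 0 and BCAN, were chosen after their values were seen. The 10 rows most like the genes were those of highest ratio among rows of at least 1000 FPKM in estrus. No sequences were used. Python 3.11.15, numpy 2.4.6, pandas 2.3.3 and matplotlib 3.10.9 were used. Alternatives were other pseudocounts (0.1 and 10 FPKM), scalings, filters and windows.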

Additional observations from a re-analysis of the deposited data

How the results depend on the processing

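The 4 genes were chosen for ratios too large for these alternatives to bring near 2-fold, so their ratios are given as values and nothing is read from their direction. The log2 ratios of OPRM1, PPARGC1A and TBX15 were 10.60, 9.64 and 12.79 with a pseudocount of 0.1 FPKM, and 10.44, 9.53 and 10.37 with 10 FPKM. They were 10.003, 9.05 and 11.73 with equal upper quartiles, 9.62, 8.67 and 11.35 with equal FPKM sums, and 10.03, 9.08 and 11.76 with equal sums without the 4 genes. These scalings moved the median log2 ratio of all counted rows by -0.48, -0.78 and -0.46. TBX15 thus led with every scaling and was passed by OPRM1 with a pseudocount of 10 FPKM. The share of the estrus FPKM sum held by the 4 genes was 31.2% over rows with a symbol and 24.8% over numbered and X chromosomes. An alternative chosen after seeing the data left out OPRM1, and the other 3 genes then held 13.6%.

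Neighbours within 1 Mb numbered 10 higher and 7 lower in estrus. The counts were 6 and 4 with a pseudocount of 10 FPKM, 6 and 12 with equal FPKM sums, 2 and 3 within 0.5 Mb, 25 and 20 within 2 Mb, and 2 and 2 without the rows around CSPG5, which was chosen after seeing the data. With a mean of at least 10 FPKM 7 were higher and 3 lower of 15. The lists together, at 18 higher and 28 lower, gave 11 and 10 with a pseudocount of 10 FPKM and 11 and 39 with equal FPKM sums. With a mean of at least 10 FPKM they gave 11 and 6. Beside these list and neighbour counts, all counted rows gave 2590 higher and 2740 lower as deposited. They gave 1412 higher and 976 lower with that pseudocount. With that filter all counted rows gave 1519 higher and 942 lower. Of 140 counts for single lists, 100 stayed within 1.5 times and 40 moved further, 34 of them downward. The 100 include counts of 0 that stayed at 0, such as that of T-box rows higher in estrus, so they overstate how stable the counts were. No paired analysis was possible because each stage has 1 library, and no library could be left out for the same reason. Depth limits the diestrus values of TBX15 and CSPG5 most, since values under 3.76 FPKM rest on fewer than 3 fragments per kb there.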

Other observations

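The diestrus library also held rows of high value that were far lower in estrus, and the 5 of lowest ratio stood below the estrus values of the 4 genes. Of the 82 rows of at least 1000 FPKM in diestrus, the lowest ratio belonged to KRT17, a basal-cell keratin, at 0.174 FPKM in estrus, against 1117 in diestrus. The next 4 were pseudogene rows. ENSBTAG00000035206 stood at 1.69 FPKM at estrus against 1045 at diestrus, and ENSBTAG00000046952 at 3.30 FPKM in estrus, against 1546 in diestrus. ENSBTAG00000034433 stood at 87.1 FPKM at estrus against 3205 at diestrus, and ENSBTAG00000000168 at 53.1 FPKM in estrus, against 1744 in diestrus.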
